A study of Bos taurus with 60 samples.

Results

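Genes of the extracellular matrix and its turnover were followed through the dry period of the dairy cow, the non-lactating phase between milking stops and calving. The 6 genes are MXRA5, COMP, LOXL4, TIMP4, MMP27 and EDIL3, out of 25223 loci counted in each library. They were found by pairing each symbol with 1 locus in the study's supplementary tables. The genes were chosen by their changes in these same samples, so the comparisons that chose them are given here as descriptions. The change from D3 vs. D-3 selected MXRA5, COMP, LOXL4, TIMP4 and EDIL3. The change from D7 vs. D3 selected MMP27, again LOXL4 and possibly COMP and EDIL3. The difference between treatments at D7 also selected EDIL3.

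The extracellular matrix is the mesh of collagens, elastin, laminins and glycoproteins that holds the milk-producing alveoli in place. Its breakdown by metalloproteinases, held back by their inhibitors (TIMPs), accompanies the loss of alveolar cells when milk stops being removed, and new matrix is laid down as the gland is rebuilt. Cross-linking enzymes then set how stiff and how long-lived the fibres are.

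Mammary biopsies came from 12 multiparous Holstein cows, 6 assigned to cooling (CL, shade with fans and soakers) and 6 to heat stress (HT, shade only) for the dry period. Each cow gave 5 biopsies, 1 in late lactation (D-3) and 4 after milking stopped (D3, D7, D14, D25), for 60 libraries in all. Both groups were sampled at D-3 before their treatments began. The CL and HT cows were kept in separate pens, so pen and treatment cannot be told apart.

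Total counts per library ranged from 20525083 to 26183990. Values below are CPM (read counts relative to library size) after scaling by the trimmed mean of M-values (TMM), and they are not divided by gene length, so levels are compared between samples and not between genes. Tests were edgeR's quasi-likelihood F-tests over the 14714 loci that reached 1 CPM in at least 6 libraries, all 6 genes among them. A locus with a Benjamini-Hochberg false discovery rate (FDR) of at most 0.05 was called. In whole tissue, fewer cells of a type and less RNA per cell cannot be told apart.

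Each of the 6 loci holds a single ENSEMBL gene. The identifiers are ENSBTAG00000022150 for MXRA5, ENSBTAG00000004630 for COMP, ENSBTAG00000046848 for LOXL4, ENSBTAG00000020263 for TIMP4, ENSBTAG00000040567 for MMP27 and ENSBTAG00000044033 for EDIL3. In the RefSeq table of the ARS-UCD2.0 assembly, used here only for gene names and order, MMP27 lies between the protein-coding genes MMP8 and MMP20, other matrix metalloproteinases. In the same table EDIL3 follows HAPLN1 and VCAN, both genes of proteoglycan matrix. The library kit does not mark strand, so reads of an antisense transcript cannot be told apart from those of the gene.

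Depth differed widely among the genes. MXRA5 had 247 to 45459 counts per library, TIMP4 88 to 694 and EDIL3 34 to 784. LOXL4 had 1 to 281 and COMP 0 to 767. MMP27 was the sparsest, with 0 to 79 counts, 644 in all 60 libraries together and none in 7 of them. The values of MMP27 and LOXL4 therefore rest on few reads in many libraries.

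**Figure D1:**
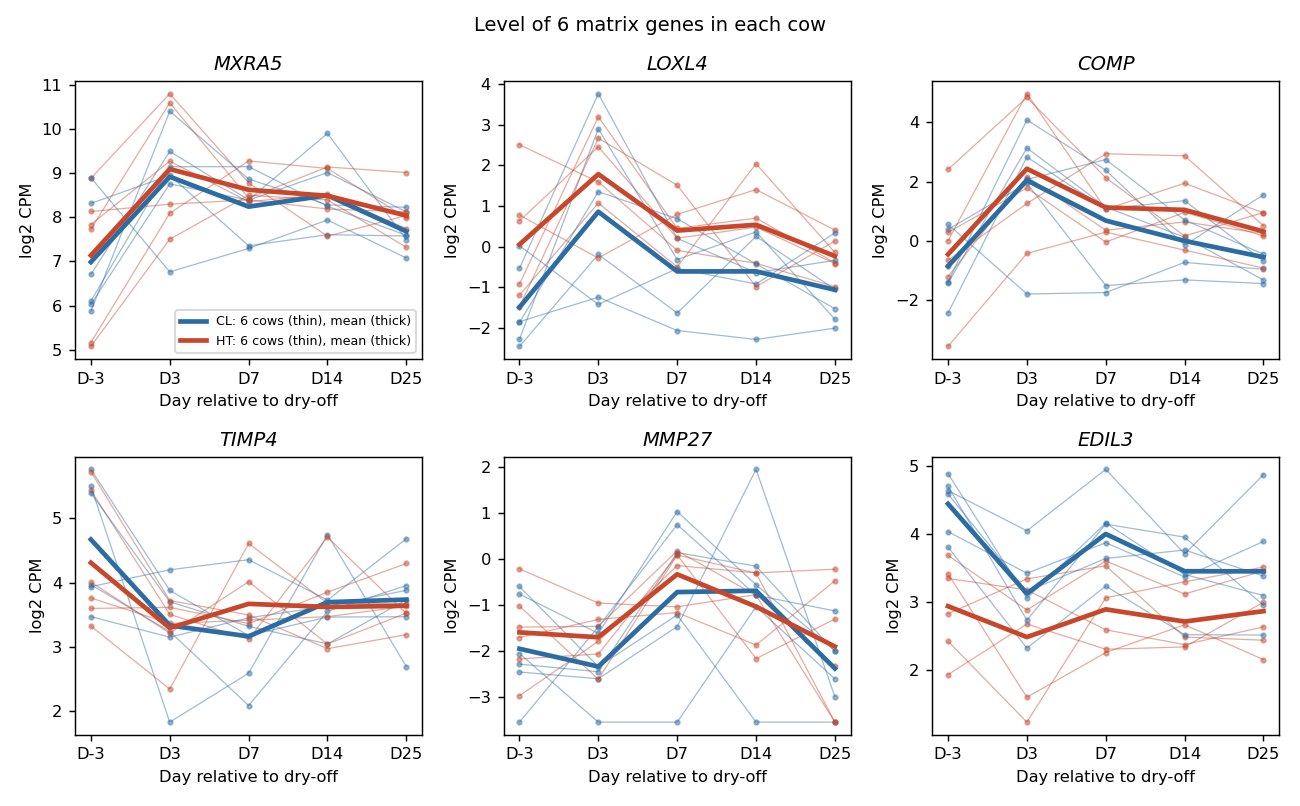
The 6 panels plot the log2 CPM of each gene (prior count 2) at the 5 time points, with a thin line for each of the 12 cows and a thick line for the mean of 6 CL or 6 HT cows. MXRA5, COMP and LOXL4 peaked at D3, TIMP4 was highest at D-3, MMP27 was highest at D7 and D14, and the EDIL3 mean of the HT cows lay under that of the CL cows at every time point.

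Some libraries stood apart, and they touch the results below. At D-3, transcripts of the milk protein genes CSN1S1, CSN2 and LALBA took 40.2% to 49.8% of the counts in 5 cows (7965, 8541, 8564, 8647 and 8713) and 0.190% to 8.03% in the other 7. The TMM factors at D-3 ranged from 0.3 to 1.21 and those of the other time points from 0.798 to 1.21. At D14, the library of cow 7965 (CL) held little epithelial message, with 3.36 CPM of KRT19 and 6.57 CPM of KRT5, keratins of luminal and basal epithelium. The other 11 libraries of D14 had at least 231 and 118.9 CPM. Its DCN, a fibroblast proteoglycan, stood at 5393 CPM against 561 to 1558 in those 11. The late samples (D14 and D25) of cow 8513 correlated with the early samples of cow 8660 at a mean of 0.51, and at -0.10 with its own early samples, in deviations from the group means. The late samples of cow 8660 correlated at 0.37 with the early samples of 8513 and at 0.12 with its own. Both cows are HT, so comparisons of treatment groups at a single time point are not altered by which of them a library belongs to. Within-cow changes from D7 to D14 are altered, as are cow averages and changes that join early and late samples.

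The tissue label was checked against 11 of 47 listed cell type markers, the ones that could be paired with a locus. Leaving out the D14 library of cow 7965, the epithelial keratins KRT19 and KRT5 were at 231 CPM or more and 118.9 CPM or more in all 59 libraries, and DCN at 386 CPM or more. The endothelial receptor KDR lay between 58.2 and 371 CPM in those 59, and the skeletal muscle myosin MYH2 between 0 and 16.7 CPM.

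MXRA5, COMP and LOXL4, all selected for their change at D3 vs. D-3, had their highest medians at D3. This was not so for every matrix gene, as the interstitial collagen COL14A1, an example chosen after its values were seen, had its lowest median there (62.2 CPM, against 96.3 CPM at D-3 and 111 CPM at D7). MXRA5, which encodes a large secreted proteoglycan of remodelling matrix, ranged from 33.6 to 475 CPM at D-3 with a median of 158 over 12 cows. At D3 it ranged from 108 to 1774 CPM with a median of 528. Both ranges overlapped, but 11 of the 12 cows rose. The log2 fold change was 1.83 (SE 0.38), or 3.56-fold.

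COMP, a thrombospondin family glycoprotein that organises collagen fibrils, was nearly silent in late lactation. Its median was 0.514 CPM at D-3 (0 to 5.23) and 4.28 CPM at D3 (0.205 to 31.2). The same number of cows, 11 of 12, rose, and the log2 fold change was 3.13 (SE 0.62), or 8.77-fold. The only cow that fell in either gene was 8686 (CL), in which MXRA5 went from 475 to 108 CPM and COMP from 1.39 to 0.205 CPM. Without this cow, the log2 fold changes were 2.14 for MXRA5 and 3.30 for COMP.

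LOXL4, a copper-dependent amine oxidase that cross-links collagen and elastin, went from a median of 0.396 CPM (0.0963 to 5.60) at D-3 to 2.70 CPM (0.287 to 13.5) at D3. The change was less uniform, with 9 cows up and 3 down, and within-cow log2 changes from -1.45 to 5.19. The fitted log2 fold change was 2.03 (SE 0.55). Leaving out cow 8564, the highest at D3, gave a log2 fold change of 1.67 and an FDR of 0.0553.

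The metalloproteinase inhibitor TIMP4 and the integrin ligand EDIL3 were lower after dry-off. TIMP4 had a median of 15.8 CPM (9.94 to 54.2) at D-3 and 10.8 CPM (3.47 to 18.3) at D3, lower in 10 of 12 cows, with a log2 fold change of -1.36 (SE 0.28). EDIL3 is a secreted protein that binds αv integrins, limits leukocyte adhesion and helps phagocytes take up dying cells. Its median was 13.4 CPM (3.75 to 29.6) at D-3 and 7.79 CPM (2.28 to 16.5) at D3, also lower in 10 of 12 cows, with a log2 fold change of -0.97 (SE 0.31). MMP27, a matrix metalloproteinase, had similar medians at both days, 0.188 and 0.178 CPM, and a log2 fold change of -0.59 (SE 0.62).

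Of all tested loci, 6.03% were called higher and 9.04% lower at D3 vs. D-3, and 3 of the 6 genes were called higher and 2 lower, which is how they had been selected. With the cow as a block the same 5 genes were called. Without cows 8564, 8603, 8647, 8686 or 8713, each in turn, EDIL3 was not called, with an FDR of up to 0.0957.

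The levels at D-3 moved with the milk protein transcripts, and in opposite directions for different genes. In the 5 libraries with at least 40% of such counts, TIMP4 was at 42.0 to 54.2 CPM, above all 7 other cows (9.94 to 16.02 CPM). MXRA5 was at 33.6 to 104 CPM in those 5 and at 58.3 to 475 CPM in the other 7. COMP was at most 0.551 CPM in the 5, against 0.301 to 5.23 CPM.

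Within-cow changes to D3 differed in the same way. For TIMP4 they ran from -3.67 to -1.69 in the 5 cows and from -0.98 to 0.26 in the other 7. MXRA5 rose by 2.43 to 3.04 in all of the 5, while the other 7 ran from -2.13 to 4.53. When CPM was taken on library size alone, TIMP4 at D-3 was 15.7 to 18.9 CPM in the 5 and 10.1 to 18.7 CPM in the 7, so its separation at D-3 was present on the TMM scale and not on library size. MXRA5 showed the reverse, with no overlap on library size (10.1 to 43.6 CPM in the 5 and 70.1 to 560.1 CPM in the 7) and overlap on the TMM scale. On library size alone, the TIMP4 log2 fold change from D-3 to D3 was -0.53 (FDR = 0.0671) and that of EDIL3 was -0.45 (FDR = 0.306), with the median of all loci moved to 0.35. Relative to that median both stayed lower. The rises of MXRA5 (1.93), COMP (3.35) and LOXL4 (2.03) were called on either scale. The part of the milk protein transcripts in these changes was not tested.

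**Figure D2:**
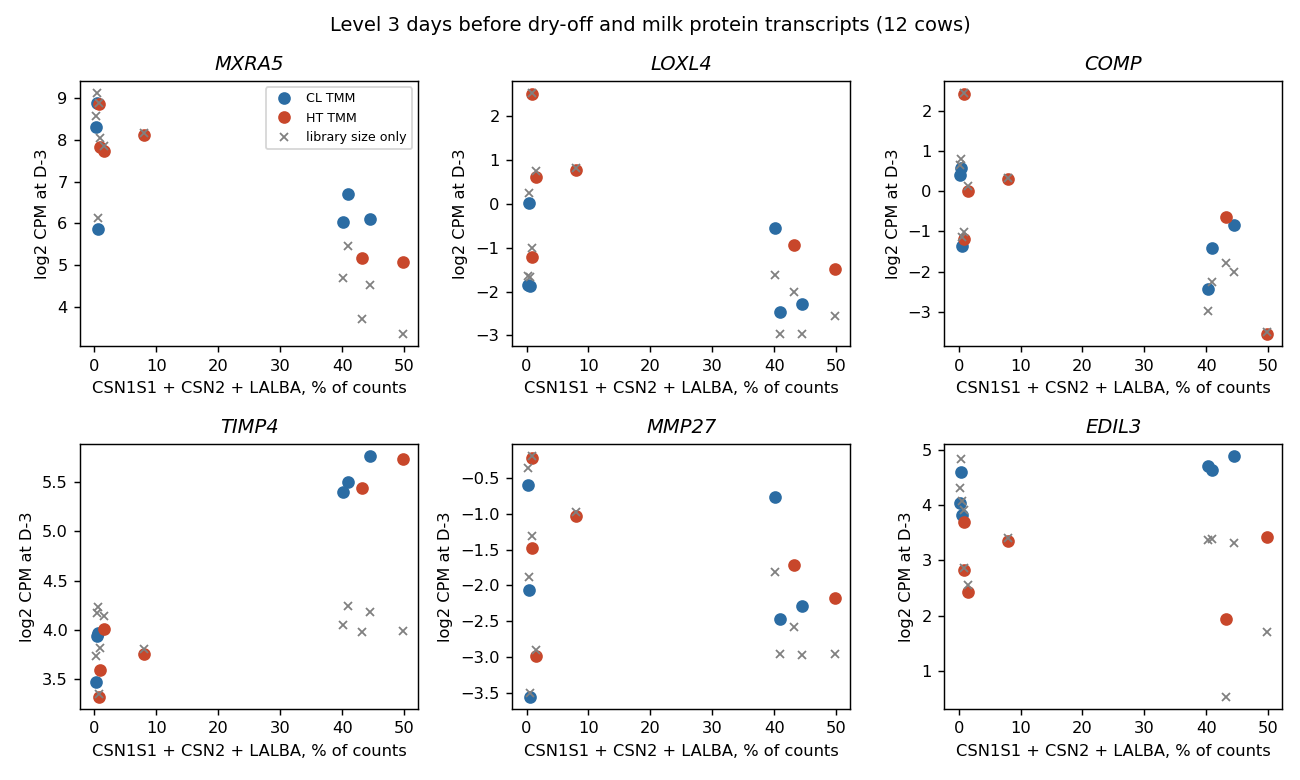
Each panel plots the log2 CPM of a gene at D-3 against the percentage of counts on CSN1S1, CSN2 and LALBA in that library, with blue (CL) and red (HT) circles for TMM-scaled values of 12 cows and grey crosses for the same libraries on library size alone. The 5 libraries at the right, with 40.2% to 49.8%, held TIMP4 at 42.0 to 54.2 CPM when TMM-scaled, and their crosses lie far lower.

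Some markers of other cells also differed between D-3 and D3, and others did not. The tables that paired these markers hold mainly loci with small p-values at D3 vs. D-3 or D7 vs. D3. Their differences between these days are therefore no independent evidence. The myoepithelial keratin KRT5 had a median of 266 CPM at D-3 and 667 CPM at D3, ACTA2 of contractile cells 465 and 833 CPM, and the muscle myosin MYH2 0.571 and 3.65 CPM. MYH11, also of contractile cells, had medians of 564 and 587 CPM, and the luminal keratin KRT19 of 908 and 917 CPM. The fibroblast gene DCN had medians of 672 and 702 CPM. Lower medians at D3 were those of endothelial KDR (130 and 91.8 CPM) and the adipocyte hormone ADIPOQ (13.7 and 5.43 CPM). Their part in the changes of the 6 genes was not tested.

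From D3 to D7 the 3 genes that had risen fell back in median, and MMP27 rose. MXRA5 had a median of 340 CPM (157 to 618) at D7 and a log2 fold change of -0.91 (SE 0.37). It was lower in 7 cows and higher in 5. COMP had a median of 2.03 CPM (0.215 to 7.60) and a log2 fold change of -1.72 (SE 0.58), lower in 8 cows. Neither was called, and COMP passed with DESeq2, at an FDR of 0.0425.

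LOXL4 was lower in 10 of 12 cows, at a median of 0.958 CPM (0.153 to 2.76), with a log2 fold change of -2.02 (SE 0.55) that was called. MMP27 rose to a median of 0.899 CPM (0 to 1.96), in 10 of 12 cows, with a log2 fold change of 2.09 (SE 0.59) that was called. It was unchanged at 0 counts in cow 8686, a count that allows up to 3 reads. For TIMP4 the median was 10.4 CPM (log2 fold change 0.14, SE 0.28). EDIL3 had 11.8 CPM (0.68, SE 0.31) and was higher in 10 of 12 cows.

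Across all loci 0.625% were called higher and 2.3% lower at D7 vs. D3. The calls of the 2 genes were not stable to the choice of cows. LOXL4 was not called without cow 8541, 8564, 8647, 8660 or 8713, and MMP27 not without 8314, 8541, 8564, 8603, 8647, 8660, 8668 or 8713, with an FDR of up to 0.139 and 0.133. On library size alone neither was called (FDR = 0.206 and 0.138). DESeq2 called LOXL4 (FDR = 0.00758) but gave no FDR for MMP27, which was therefore not called there. Blocking by cow kept both calls, added none among the 6 genes and raised the calls over all loci from 430 to 881.

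Between D7 and D14 no gene of the 6 was called. D14 vs. D7 shares the D7 libraries with comparisons that chose the genes, so their changes are given without a test. Over all loci the calls were 0%, and 1.75% had an unadjusted p under 0.05 in edgeR's test. DESeq2 also called 0 loci, with 245 at an unadjusted p under 0.05. MXRA5 had a median of 323 CPM (190 to 951) at D14, with a log2 fold change of 0.12 (SE 0.37). COMP had 1.26 CPM (0.318 to 7.25) and LOXL4 0.884 CPM (0.119 to 4.02), with log2 fold changes of -0.55 (SE 0.57) and 0.22 (SE 0.54). For each of these genes 6 cows were higher and 6 lower.

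TIMP4 had a median of 12.0 CPM (7.77 to 26.8) and a log2 fold change of 0.21 (SE 0.28). MMP27 had 0.496 CPM (0 to 3.79) and -0.15 (SE 0.54), lower in 9 of 12 cows. Its highest value of all 60 libraries, 79 counts or 3.79 CPM, was in the D14 library of cow 7965, and the other 11 libraries of that day had at most 0.813 CPM. Without that library the log2 fold change of MMP27 was -0.81.

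EDIL3 was lower at D14 than at D7 in 8 of 12 cows. Its median was 9.19 CPM (5.00 to 15.4), and the fitted log2 fold change was -0.46 (SE 0.31). The within-cow log2 changes ran from -1.24 to 0.41. No test of this change is given, since the D7 libraries had a part in choosing the gene.

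Between D14 and D25, MXRA5, COMP, LOXL4 and MMP27 were lower in most cows. MXRA5 fell in 11 of 12 cows, to a median of 233 CPM (135 to 515), with a mean within-cow log2 change of -0.63. A two-sided exact sign-flip test gave p = 0.00830. Of the 6 such tests at D25 vs. D14, not corrected for their number, those of MXRA5 and MMP27 were under 0.05. Without cow 7965, whose D14 library was poor in epithelial message and held 951 CPM of MXRA5, the mean change was -0.47 and p = 0.0166 (exact sign-flip test). In edgeR's fit the log2 fold change was -0.70 (SE 0.37) and was not called. Its unadjusted p was 0.0614 in edgeR's test, 0.0472 there with the cow as a replicate block and 0.0460 with DESeq2.

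MMP27 had a median of 0.138 CPM (0 to 0.773) at D25, with 0 counts in 3 libraries. It was lower in 8 cows and higher in 3, and the sign-flip p was 0.0303 (exact). The fitted log2 fold change of -1.69 (SE 0.58) had an unadjusted p of 0.00496 and an FDR of 0.646 in edgeR's test. The exact p was 0.0508 to 0.0605 without cow 7965, 8314, 8513, 8564, 8647, 8686 or 8713. Without the D14 library of cow 7965 the log2 fold change was -1.03 and the unadjusted p was 0.0659.

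COMP (0.844 CPM, 0.285 to 2.86) was lower in 10 of 12 cows and LOXL4 (0.667 CPM, 0.163 to 1.24) in 8. Their fitted log2 fold changes were -0.84 (SE 0.58) and -0.91 (SE 0.55), and the exact sign-flip p was 0.0776 and 0.0884. TIMP4 (12.5 CPM, 6.38 to 25.6) and EDIL3 (8.20 CPM, 4.38 to 29.2) had log2 fold changes of 0.00 (SE 0.28) and 0.17 (SE 0.31). Among all loci, 0.0612% were called at D25 vs. D14 and 3.63% had an unadjusted p under 0.05. None of the 6 genes was called. Fitting the cow as a replicate block left 0 loci called in place of 9.

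**Figure D3:**
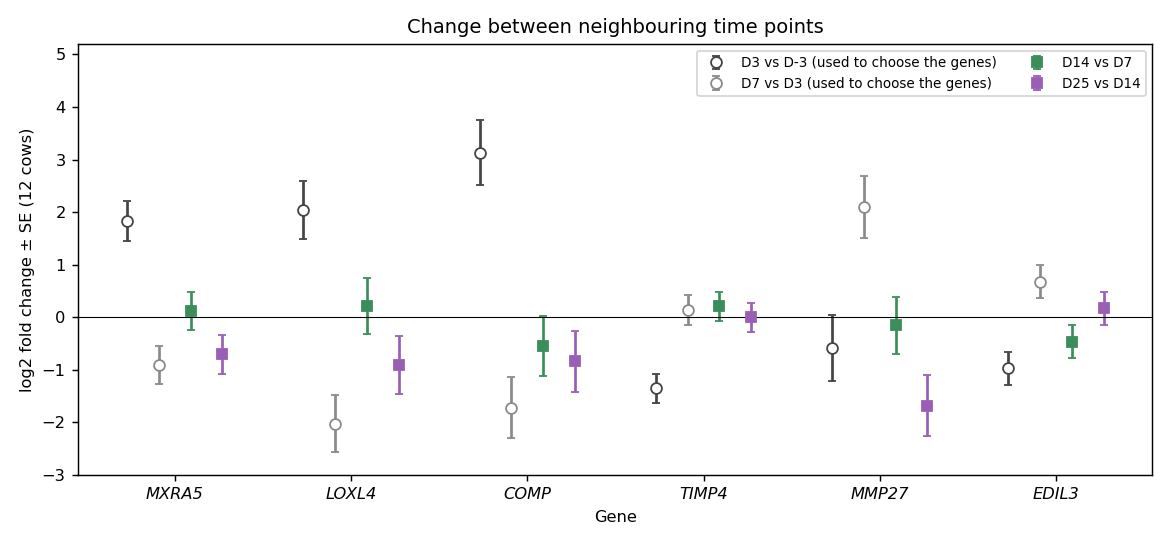
Points show the log2 fold change of each gene between neighbouring time points, from edgeR's fit of 60 libraries, and bars show 1 SE. Open circles mark the 2 comparisons that selected the genes and filled squares the 2 that did not. Of the latter, D14 vs. D7 shares the D7 libraries with D7 vs. D3. The lowest square is MMP27 at D25 vs. D14 (-1.69).

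Over the 5 time points, the medians of MXRA5 were ordered D3, D7, D14, D25 and D-3 from the highest. Those of COMP followed the same order, and those of LOXL4 too. TIMP4 was highest at D-3 and the 4 later medians lay between 10.4 and 12.5 CPM, with ranges that overlapped throughout. The medians of MMP27 were highest at D7 and D14, and those of EDIL3 at D-3 and D7.

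Other genes of matrix biology were read from a list of 135 symbols, ordered by role, of which 27 besides the 6 genes could be paired with a tested locus. The tables that pair symbols hold mainly loci with small p-values at D3 vs. D-3 or D7 vs. D3. Counts in those comparisons are therefore no independent evidence. At D3 vs. D-3, 13 of the 27 were called higher and 2 lower, with a median log2 fold change of 0.23 against -0.01 over all loci. Called higher with the largest changes were ITGB6 (1.44, SE 0.46), an epithelial integrin subunit, and FN1 (1.36, SE 0.33), which encodes fibronectin. THBS1 (1.33, SE 0.37), a thrombospondin, and TIMP1 (1.25, SE 0.33) followed. The lower were the locus of HAPLN3 (-2.88, SE 0.58) and the keratan sulfate proteoglycan OMD (-1.96, SE 0.49). HAPLN3 encodes a proteoglycan link protein, but its locus also joins another gene. The change of that locus can therefore not be assigned to HAPLN3.

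Among relatives of the 6 genes, the inhibitors TIMP1 and TIMP2 and the oxidase LOXL1 rose while TIMP4 was lower. The log2 fold changes were 1.21 for TIMP2 (SE 0.30) and 1.09 for LOXL1 (SE 0.27), both called. TIMP3 had 0.23 (SE 0.20) and was not called. In CPM, the median of TIMP2 went from 46.0 to 123, that of TIMP1 from 24.6 to 45.8 and that of LOXL1 from 45.6 to 94.4. No locus was paired here with LOX, LOXL2, LOXL3, MFGE8, MMP2, MMP9 or MMP14, which are not analysed here.

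At D7 vs. D3, 5 of the 27 were called higher and 3 lower. OGN (1.38, SE 0.37), a small leucine-rich proteoglycan, NID1 (0.73, SE 0.19), a basement membrane linker, and the secreted protease ADAMTS9 (0.72, SE 0.20) were highest, followed by RECK (0.56, SE 0.15), a membrane-anchored metalloproteinase inhibitor. THBS1 (-1.28, SE 0.37) and TIMP3 (-0.85, SE 0.20) were among the lower. On library size alone 0 were higher and 1 lower, and with the cow as a replicate block 10 and 3.

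At D14 vs. D7 and D25 vs. D14 the list held no calls. The former shares the D7 libraries with D7 vs. D3, a comparison behind the pairing of symbols, so it is not free of that selection. At D14 vs. D7, 17 of the 27 were higher and 10 lower, with 0 at an unadjusted p under 0.05 in edgeR's test. At D25 vs. D14, 23 of 27 were lower, with a median log2 fold change of -0.35 against 0.01 over all loci. Of these, 12 had an unadjusted p under 0.05, FN1 (-0.99, SE 0.33) and DCN (-0.73, SE 0.24) with the smallest p-values. Without the D14 library of cow 7965, in which FN1 stood at 7347 CPM against 532 to 1877 in the other 11, 0 of the 27 had one, 25 were lower and the median was -0.16. The unadjusted p-values under 0.05 of the list at D25 vs. D14 were therefore absent without this 1 library.

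No locus was called between HT and CL at any time point by edgeR, 0% of 14714 in each of the 5 comparisons. Loci with an unadjusted p under 0.05 made up 2.02% before dry-off (D-3). After it they made up 0.659% (D3), 4.61% (D7), 1.69% (D14) and 2.25% (D25). DESeq2 called 3 loci at D7 and 1 at D25, and none of the 6 genes at either. For the interaction of treatment and time, calls were 0% in edgeR and 0 in DESeq2, and 0.578% of loci had an unadjusted p under 0.05, again with none of the 6 genes (p from 0.320 for MMP27 to 0.959 for MXRA5, edgeR).

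EDIL3 had the clearest separation by group, and it was present before the treatments started. At D-3, CL cows had 14.0 to 29.6 CPM with a median of 24.4, and HT cows 3.75 to 12.8 CPM with a median of 8.57. All 6 HT cows lay under all 6 CL cows. Over all loci, 0.0544% separated without overlap at D-3. The log2 fold change of HT vs. CL was -1.44 (SE 0.30), with an unadjusted p of 3.97e-04 and an FDR of 0.999995 in edgeR's test, and a two-sided exact permutation test gave p = 0.00216, the smallest it can give with 6 against 6. On library size alone the log2 fold change was -1.15 (unadjusted p = 0.0509, edgeR) and the exact permutation p was 0.0303. The same cows in the same groups selected EDIL3 at D7, and the D-3 libraries had a part in selecting it at D3 vs. D-3. These p-values are therefore descriptions and no independent evidence.

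At D7, the time point that selected it, EDIL3 was at 9.35 to 30.9 CPM in CL and 4.71 to 12.1 CPM in HT, with a log2 fold change of -1.11 (SE 0.32). The groups overlapped, whereas 0.143% of all loci did not overlap at D7. The other time points gave the same sign, in the same cows, so their p-values are descriptions too. At D3, CL cows had 4.93 to 16.5 CPM and HT cows 2.28 to 10.1 CPM, with a log2 fold change of -0.56 (SE 0.38, exact permutation p = 0.177). At D14 the ranges were 5.67 to 15.4 and 5.00 to 9.77 CPM, the log2 fold change was -0.76 (SE 0.26) and the exact permutation p was 0.0216, and 0.0519 without cow 8564. At D25 they were 5.65 to 29.2 and 4.38 to 11.4 CPM, with -0.72 (SE 0.38) and an exact permutation p of 0.197.

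When each cow's log2 CPM of EDIL3 was averaged over D-3, D3, D14 and D25, a test chosen after seeing the values, HT cows were lower by a mean of -0.87 (2.76 ± 0.31 against 3.62 ± 0.49, SD, n = 6 each, exact permutation p = 0.00649). Over D3, D14 and D25, without the samples taken before treatment, the difference was -0.65 (exact permutation p = 0.0325). That p was 0.0541 to 0.0714 without cow 7965, 8060, 8513, 8541, 8660, 8668 or 8713. The cows are those of D7, so these libraries are separate but the animals are not. From D-3 to D3, EDIL3 changed by -0.45 ± 0.99 in HT and by -1.32 ± 0.59 in CL cows (SD, n = 6, exact permutation p = 0.0952). From D-3 to D14 it changed by -0.23 ± 0.72 in HT and -0.99 ± 0.32 in CL, a difference of 0.76 (exact permutation p = 0.0325). That p was 0.299 on library size alone, 0.110 without cows 8513 and 8660, and 0.0519 to 0.0823 without cow 7965, 8541, 8603, 8647, 8660 or 8686 (exact permutation tests). Both changes start from the D-3 libraries, which had a part in selecting EDIL3, so their p-values are descriptions too. Of the 5 time points, D-3 had the widest gap between the group means.

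**Figure D4:**
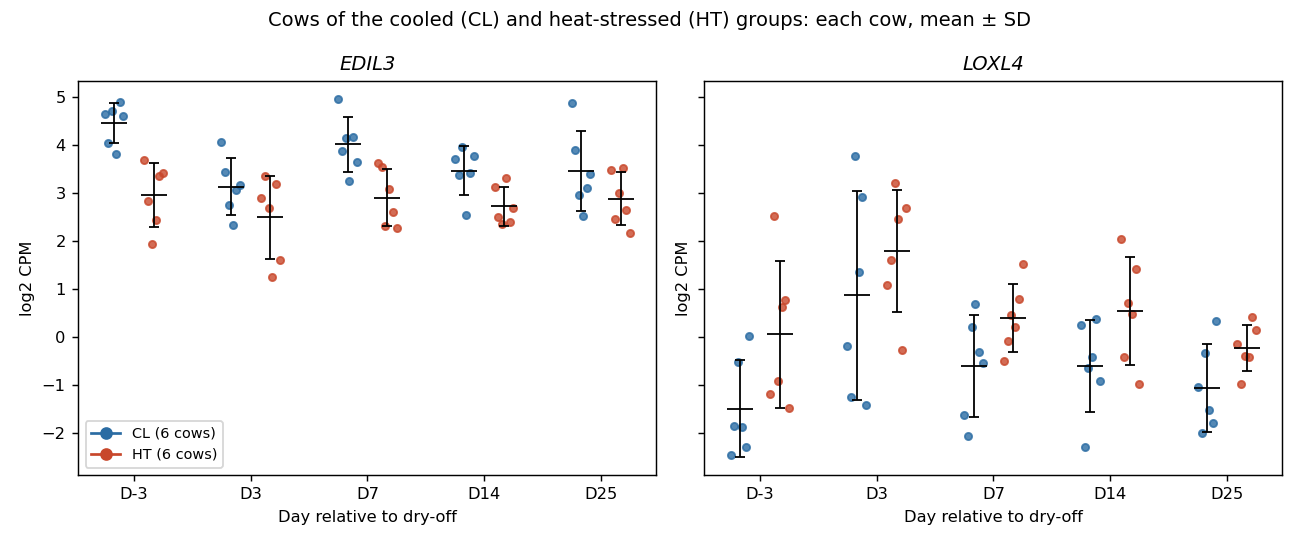
Points give the log2 CPM of EDIL3 and LOXL4 in each of 6 CL (blue) and 6 HT (red) cows at each time point, and black bars the mean ± 1 SD. For EDIL3 the HT cows lie under the CL cows without overlap at D-3 and with overlap later, and for LOXL4 the HT mean is the higher at each time point.

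LOXL4 had the opposite sign, with more in HT cows at each time point. At D-3, before the treatments began, CL cows had 0.0963 to 0.928 CPM and HT cows 0.272 to 5.60 CPM, highest in cow 8513. The log2 fold change was 2.16 (SE 0.80, unadjusted p = 0.0186, edgeR) and the exact permutation p was 0.0649. Leaving out single cows gave log2 fold changes from 1.22 to 2.80. The unadjusted p was then up to 0.0986 (edgeR) and the exact permutation p up to 0.126. At D14, CL cows had 0.119 to 1.20 and HT cows 0.419 to 4.02 CPM, with 1.36 (SE 0.59, unadjusted p = 0.0393, edgeR) and an exact permutation p of 0.0823. The groups overlapped at all 5 time points. At D3, D7 and D25 the log2 fold changes were 0.09 (SE 0.86), 0.93 (SE 0.52) and 0.72 (SE 0.48). The sign at D3 turned when single cows were left out, with values from -0.25 to 0.97. Averaged over D-3, D3, D14 and D25 in each cow, as for EDIL3, the HT mean was 1.11 higher on the log2 scale (exact permutation p = 0.00649), at 0.53 ± 0.25 against -0.58 ± 0.79 (SD, n = 6). Without D-3 the difference was 0.97 (exact permutation p = 0.0368). That p was 0.0519 to 0.0779 in 9 of the 12 repeats that left out 1 cow, those other than without 8513, 8564 or 8647. None of the other 4 genes had an exact permutation p under 0.05 in either average, the lowest being 0.240 for COMP.

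For MXRA5, COMP, TIMP4 and MMP27, HT and CL cows overlapped at all time points. The log2 fold changes of HT vs. CL ran from -0.13 to 0.40 for MXRA5, from 0.06 to 1.26 for COMP, from -0.31 to 0.43 for TIMP4 and from -1.11 to 1.14 for MMP27. The lowest unadjusted p among them was 0.0616, for COMP at D14 (edgeR). In all, 29 exact permutation tests of HT vs. CL were made for the 6 genes, and EDIL3 at D-3 and D14 were the ones under 0.05. Those of EDIL3 come from the cows whose difference at D7 selected it.

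Medians of some cell type markers also differed between the groups. The milk protein genes had the widest gaps in median, in opposite directions at the 2 time points where EDIL3 was furthest apart. CSN2 was at 21288 CPM in HT and 254236 CPM in CL cows at D-3, and at 17018 and 1160 CPM at D7. CSN1S1 had medians of 21852 and 204779 CPM at D-3 and 8170 and 1071 CPM at D7, and LALBA of 2495 and 25231 CPM and then 747 and 13.7 CPM. The libraries rich in these transcripts at D-3 were those of CL cows 7965, 8564 and 8647 and HT cows 8541 and 8713. Fitted log2 fold changes of HT vs. CL at D-3 were small, at -0.21 for CSN2, -0.15 for CSN1S1 and -0.11 for LALBA. At D7 they were 2.71, 2.71 and 3.48.

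These genes varied widely within each group, and none of the 3 had an unadjusted p under 0.05 at either day in edgeR's test. Of the 11 paired markers, 0 had one at D-3, D3 and D25, 3 at D7 and 2 at D14. At D7 these were KRT19 (697 CPM in HT, 519 CPM in CL), ACTA2 (472 and 342 CPM) and MYH2 (0.392 and 0.0811 CPM). At D14 they were ADIPOQ, an adipocyte hormone (13.8 and 10.9 CPM), and MYH2 (0.146 and 0.134 CPM). Their medians were close, while the fitted log2 fold changes were 2.14 and 3.58. The highest D14 values lay far above the medians of all cows, at 313 against 13.3 CPM for ADIPOQ and 9.65 against 0.134 CPM for MYH2. The part of these markers in the gaps of EDIL3 and LOXL4 was not tested.

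The spread of log2 CPM over the 60 libraries was divided among time point, treatment, cow and the rest, as a description. For MXRA5, 34.4% of the sum of squares lay between time points and 0.867% between treatments. COMP had 32.6% between time points and 26.7% between cows within a treatment. EDIL3 differed from the others, with 14.3% between time points, 32.1% between treatment groups and 23.2% between cows within a group. Its treatment share includes D7, whose treatment difference selected EDIL3, so it is no independent evidence. The treatment shares of all genes include D-3, sampled before the treatments began, where the EDIL3 gap was widest. LOXL4 had 14.4% between treatment groups.

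**Figure D5:**
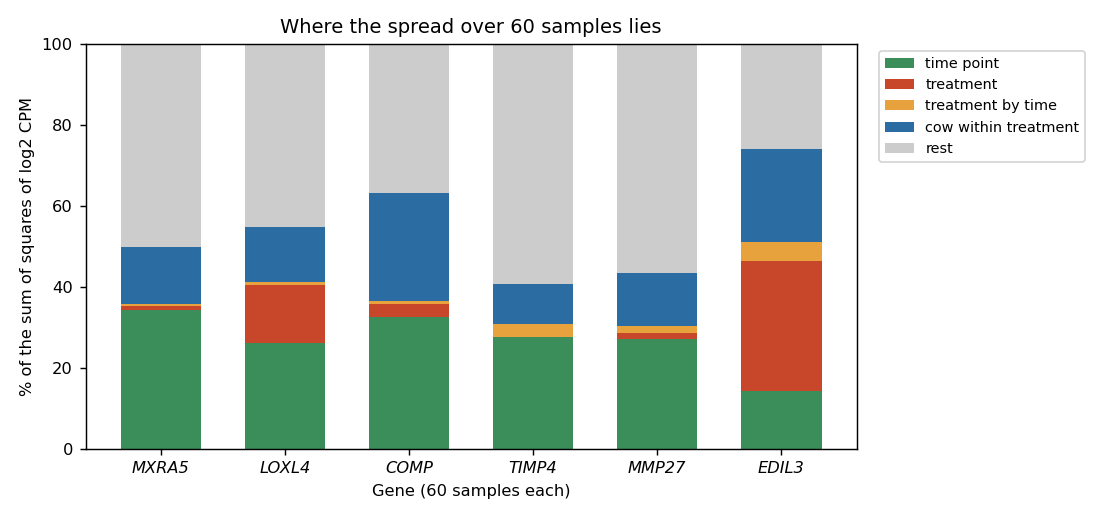
Stacked bars give the percentage of the sum of squares of log2 CPM over 60 libraries that lies between time points, between treatments, in their combination, between cows within a treatment and in the rest. Treatment group holds 32.1% for EDIL3 and 14.4% for LOXL4, and at most 3.30% for the other 4 genes. These shares include D-3, sampled before treatment, and D7, whose treatment difference selected EDIL3.

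Among the 6 genes, MXRA5 and COMP were the most alike, with a Pearson r of 0.86 over 60 libraries and 0.82 after the time point means were removed. These libraries share cows and composition, so r is a description. MXRA5 and TIMP4 had an r of -0.63. EDIL3 and LOXL4 had -0.53. Compared with 2867 other loci that carry a symbol, MXRA5 was most like COL8A2 (r = 0.94), PTGFRN (0.90) and FN1 (0.89). For COMP these were LTBP3 (0.86), COL8A2 (0.84) and ALDH3B1 (0.83). LOXL4 was nearest to VWA1 (0.83), RAC1 (0.81) and PTGES (0.81), and TIMP4 to ABLIM3 (0.86), SDC2 (0.82) and SOD1 (0.82). The best match of MMP27 was ITGBL1 (0.70), followed by SPON1 (0.66) and SFRP2 (0.66). The r values were lowest for EDIL3, with ORC4 (0.59), SLC4A5 (0.57) and EHBP1 (0.56) as its nearest.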

How the data were processed

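The authors trimmed single-ended reads with Trim Galore 0.4.1, mapped them with TopHat 2.0.13, assembled loci with Cufflinks 2.2.1 and counted reads per locus with htseq-count. The genome is bosTau7 in the paper and UMD3.1 in the submitters' processing notes, and no coordinates are printed. The deposited values are raw counts, without normalization. The members and gene lists were chosen with earlier results of these data known. Symbols came from supplementary tables held in part.

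Counts were TMM-normalized and tested with edgeR 4.0.16 (quasi-likelihood F-test, R 4.3.3), over time in 60 samples with time point as the factor and between HT and CL in the 12 samples of each time point. Exact tests used log2 CPM (prior count 2) over 4096 sign changes or 924 regroupings. Samples of a cow are paired by the labels. Deviations from group means correlated at 0.29 within cows and -0.06 between cows of a treatment. Named genes were the 6 genes, the list members called with the largest changes (up to 4 each way), relatives of the 6 genes, and the 3 loci most like each. The fits were tested on simulated data. Alternatives were RLE factors, library size only, DESeq2 1.42.0, no filter, tagwise dispersions, 2 time points only, the cow as a block, 1 fit for HT and CL, and each cow left out. 1 called member of the matrix list is not reported here by name.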

Additional observations from a re-analysis of the deposited data

Results flagged for a closer look

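Among 60 groups of 6 cows (6 genes, 5 time points, 2 treatments), 3 held a cow far from the other 5 on the log2 scale, with a gap to its neighbour of more than 0.625 of the range. Chance alone gives about 1 such group in 20. COMP in cow 8686 (CL) at D3 was at 0.205 CPM, against 3.77 to 16.8 CPM in the other CL cows. COMP in cow 8603 (CL) at D25 was at 2.86 CPM, against 0.285 to 0.65 CPM. TIMP4 in cow 8513 (HT) at D3 was at 4.99 CPM, against 9.2 to 13.1 CPM.

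The change of EDIL3 from D-3 to D14 differed between treatments by 0.764 on the log2 scale (exact permutation p = 0.0325), as HT cows changed less than CL cows. It was 1 of 23 such tests over the 6 genes and 4 later time points, and its p was not under 0.05 on library size alone. HT minus CL in mean log2 CPM was -1.50 at D-3 and -0.74 at D14. The D-3 libraries had a part in selecting EDIL3, and the same cows selected it at D7. The p-value is therefore a description and no independent evidence.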

How the results depend on the processing

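Over all loci, D3 vs. D-3 gave 2217 calls, and 824 when only the 2 time points were fitted. D7 vs. D3 gave 430 calls, 36 on library size alone, 716 with DESeq2 and 648 with tagwise dispersions. D14 vs. D7 gave 0, and 10 with tagwise dispersions. D25 vs. D14 gave 9 calls, 4 on library size alone, 26 without a filter, 4 with DESeq2, 30 with tagwise dispersions, 0 with 2 time points only and 0 without the D14 library of cow 7965. HT vs. CL gave 3 calls at D7 and 1 at D25 with DESeq2. Leaving out each cow moved the calls from 1205 (without 8713) to 2557 (without 8686) at D3 vs. D-3, from 34 (without 8564) to 609 (without 8668) at D7 vs. D3, and from 0 to 10 at D25 vs. D14. The cause was not tested.

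The samples of a cow are paired by the labels. With the cow as a replicate block, calls were 3164, 881, 0 and 0 in the 4 comparisons over time and 0 for the interaction, and no call of the 6 genes changed. The block without cow 8686 gave 3484, 960 and, at D25 vs. D14, 0 calls. With the late labels of cows 8513 and 8660 exchanged, an alternative chosen after seeing the data, the block gave 3331, 1022 and 0. In the matrix list the block gave 4 lower at D3 vs. D-3 and 10 higher at D7 vs. D3. Library size alone gave 0 higher and 1 lower at D7 vs. D3. Without the D14 library of cow 7965 the list had 4 lower at D3 vs. D-3, and 8 higher and 5 lower at D7 vs. D3.

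Each sign that turned was of a log2 fold change that was not called. Without the D14 library of cow 7965, MXRA5 was -0.077 at D14 vs. D7 and 0.29 for HT vs. CL at D14, TIMP4 0.13 at D25 vs. D14 and 0.25 for HT vs. CL at D14, and MMP27 0.0075 for HT vs. CL at D14. On library size alone, COMP was -0.073 for HT vs. CL at D7, and TIMP4 was 0.060 at D25 vs. D14 and 0.0017 for HT vs. CL at D14. TIMP4 at D25 vs. D14 was 0.010 with the block and 0.0097 with the block and exchanged labels. Leaving out single cows turned the sign of MXRA5 at D14 vs. D7 (-0.089 to 0.22) and for HT vs. CL at D-3 (-0.20 to 0.77), D3 (-0.065 to 0.76) and D14 (-0.28 to 0.29). It did so for LOXL4 at D14 vs. D7 (-0.17 to 0.53) and for HT vs. CL at D3 (-0.25 to 0.97), and for COMP for HT vs. CL at D-3 (-0.086 to 1.47) and D7 (-0.53 to 0.54). TIMP4 ran from -0.13 to 0.20 at D25 vs. D14 and, for HT vs. CL, from -0.33 to 0.047 at D3, -0.36 to 0.25 at D14 and -0.34 to 0.070 at D25. MMP27 ran from -0.90 to 0.066 at D14 vs. D7 and, for HT vs. CL, from -0.12 to 1.01 at D-3, -0.44 to 0.23 at D7 and -1.38 to 0.0075 at D14. EDIL3 ran from -0.042 to 0.30 at D25 vs. D14. In the comparisons that chose the genes, TIMP4 at D7 vs. D3 (0.14) turned to -0.078 without cow 8513 and -0.18 without 8513 and 8660, and no other sign turned. Low counts limit MMP27, with 644 reads in all libraries, and LOXL4, with 2238.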
